A study of Mus musculus with 77 samples.

Results

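The proteasome is the protease of the cytosol and nucleus that degrades proteins tagged with ubiquitin chains. Its barrel-shaped 20S core is built of alpha rings (Psma genes) around beta rings (Psmb genes) that carry the active sites, and the 19S cap recognises the ubiquitin chain, unfolds the substrate with its ring of ATPases (Psmc genes) and removes the chain with non-ATPase subunits (Psmd genes). Activators (Psme genes), the inhibitor Psmf1 and assembly chaperones (Psmg genes, Psmd5, Psmd9 and Psmd10) complete the set. The proteasome also bears on iron metabolism, since the iron regulatory protein IRP2, encoded by Ireb2, is degraded by it once the iron-sensing F-box protein FBXL5 has recruited a ubiquitin ligase.

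Proteasome genes were chosen by symbol, as Psma to Psmg followed by a digit and without pseudogenes, which gave 49 of the 25266 genes listed. Of these, 45 had enough counts to be tested, among 10696 genes tested in all. The 4 others were Psma8, a testis form of Psma7 with 0 or 1 count in the coding sequence (CDS) per RNA library, Psme2b, a copy of Psme2 with up to 2, Psmc3ip, a recombination factor that shares only the letters of its name and had up to 5, and Psmb7. Psmb7 encodes the catalytic subunit with trypsin-like activity and was listed at 0 in all columns of all libraries, so its level was not measured. The tested genes comprised 7 alpha subunits, 6 beta subunits, 3 immunoproteasome beta subunits, 6 ATPases and 11 non-ATPases of the 19S cap, 3 chaperones of the cap, 4 of the core, 4 activators and the inhibitor.

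Livers came from 24 adult male mice (12 to 24 weeks) of C57BL/6J background, kept in light and dark phases with chow freely available, with 3 mice in each of 8 groups. Mice of the Aco1 line were either Aco1+/+ or Aco1-/- (lacking IRP1, which doubles as cytosolic aconitase), mice of the Ireb2 line either Ireb2+/+ or Ireb2-/- (lacking IRP2), and each genotype was sampled at ZT5 and ZT12, in hours after lights on. Both deletions affect the whole body and not hepatocytes alone, and mRNA from the deleted locus is still made. Each lysate gave 1 library of total RNA and 1 of ribosome-protected fragments (RPFs), the pieces of mRNA shielded by translating ribosomes. RNA libraries held 852293 to 3993492 CDS counts and RPF libraries 2448915 to 13439600, and the shallowest RNA library was that of Aco1-/- replicate 1 at ZT12. Levels are given as CPM, counts scaled by the normalised library size, and translation efficiency (TE) is the log2 ratio of RPF to RNA CPM. The deleted genes followed the labels. Aco1 RPFs lay between 347.1 and 591 CPM in Aco1+/+ and between 74.8 and 123.2 CPM in Aco1-/- livers, and Ireb2 RPFs between 62.3 and 81.4 CPM in Ireb2+/+ and between 32.5 and 41.2 CPM in Ireb2-/- livers. All 7 hepatocyte markers (among them Alb and Ttr) were expressed. Of 6 T and NK cell markers 0 were among the genes listed, of 4 B cell markers 3 and of 4 neutrophil markers 2. None of the listed ones passed the filter, and markers that were not listed were not measured. In whole liver, fewer cells of a type and less RNA per cell cannot be told apart.

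Many proteasome genes of mammals are induced together by the transcription factors NFE2L1 and NFE2L2 through antioxidant response elements (AREs), and the windows before the start sites are therefore shown for the members that hold the core of that element. The letters TGACNNNGC were searched on both strands from 250 bases before to 50 after each gene's start (RefSeq, GRCm38.p6). Of the 49 members, 41 had an entry and 6 held a match (14.6%), against 3781 of 27025 promoters in all (13.99%), so the share among members was near that of all promoters. The matches are printed from the strand that carries the core, with the matched letters in capitals and the flanking bases in lower case.
Psmb5: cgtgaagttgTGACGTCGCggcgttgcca
Psmb6: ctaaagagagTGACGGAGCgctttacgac
Psmc6: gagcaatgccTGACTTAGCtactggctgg
Psmd9: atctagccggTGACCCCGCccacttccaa
Psmd12: ggggcaaatgTGACACAGCaga
Psme4: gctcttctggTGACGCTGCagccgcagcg

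They lie at chr14:54618024-54618052 for Psmb5, the chymotrypsin-like subunit, at chr11:70525338-70525366 for Psmb6, the caspase-like subunit, at chr14:45329587-45329615 for the ATPase Psmc6, at chr5:123228149-123228177 for the chaperone Psmd9, at chr11:107479278-107479299 for the lid subunit Psmd12 and at chr11:30771758-30771786 for the activator Psme4. Psmb5 is encoded on the minus strand and the other 5 on the plus strand, and the core stands on the gene's own strand in Psmb5, Psmb6 and Psmd9. Psma4 and Psmd11, to which the results below return, had an entry without these letters. These are matches of letters only.

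Ribosomes occupied proteasome mRNAs more densely than the typical liver mRNA. In the 12 control livers the median TE of the 45 members was 0.61, against 0.10 for all genes tested, and 40 of the 45 lay above that median of all genes. By quartile, 26 of the 45 lay above the upper quartile of all genes, 18 between the quartiles and 1, Psme4, below the lower one. TE was highest for Psmb2 (1.67 ± 0.46, SD, n = 12), a beta subunit without catalytic activity, followed by Psmb3 (1.24 ± 0.31, SD, n = 12), also a structural beta subunit, and by Psmd7 (1.16 ± 0.23, SD, n = 12), which holds the deubiquitinase of the lid in place. The neighbours Psmb3 and Psmd7 differed by less than their spread over livers. TE was lowest for Psme4 (-1.46 ± 0.36, SD, n = 12), which encodes the large activator PA200. Psma3, an alpha subunit (-0.30 ± 0.52, SD, n = 12), the chaperone Psmd5 (-0.21 ± 0.28, SD, n = 12), the chymotrypsin-like subunit Psmb5 (-0.14 ± 0.25, SD, n = 12) and the scaffold subunit Psmd2 (-0.06 ± 0.09, SD, n = 12) were the other members below the median of all genes. Within classes, the 6 ATPases lay in a narrow range, from 0.44 (Psmc4) to 0.81 (Psmc5), whereas the 6 beta subunits ranged from -0.14 (Psmb5) to 1.67 (Psmb2). The 11 non-ATPases ran from -0.06 (Psmd2) to 1.16 (Psmd7), the 7 alpha subunits from -0.30 (Psma3) to 0.72 (Psma1), and the 4 activators from -1.46 (Psme4) to 1.12 (Psme1). The immunoproteasome subunits ran from 0.43 (Psmb8) to 0.84 (Psmb10), the core's chaperones from 0.51 (Psmg1) to 0.86 (Psmg3), the cap's chaperones from -0.21 (Psmd5) to 0.95 (Psmd10), and the inhibitor Psmf1 stood at 1.06. Raw levels of different subunits were not compared, as no CDS lengths were used here.

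**Figure D1:**
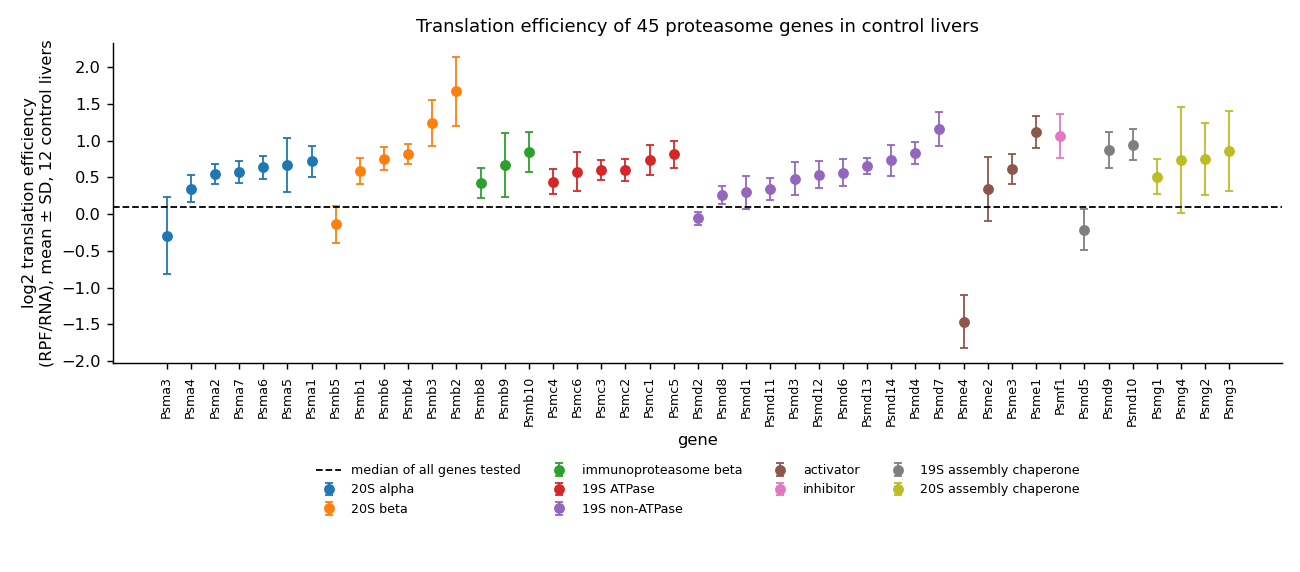
Translation efficiency (y axis, log2 of RPF over RNA) of the 45 tested members, grouped and coloured by role, as mean ± SD over 12 control livers (Aco1+/+ and Ireb2+/+ at both timepoints). The dashed line is the median of all genes tested, and 40 points lie above it, with Psmb2 at the top (1.67) and Psme4 at the bottom (-1.46).

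The spread between mice of a group was small. The median SD of log2 CPM within groups was 0.21 for RNA and 0.15 for RPFs of the members, against 0.32 and 0.26 for all genes tested, which were not matched for level. It was lowest in RPFs for Psmd11 (0.09), a lid subunit, and highest for Psma3 (0.41), and in RNA highest for the chaperone Psmg3 (0.54), whose CDS column held 26.3% of its RNA counts. Psmg3 had a median of 7.5 CDS counts per RNA library (2 to 23), so its TE rests on few counts as well.

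The first question was whether loss of either IRP changed the subunits. In RNA, 0 of the 45 members differed between knockout and control in any of the 4 comparisons (edgeR quasi-likelihood test, Benjamini-Hochberg adjusted over all genes), and DESeq2 also called 0. At an unadjusted p under 0.05 there were 0 members in the Aco1 line at ZT5 (3.73% of all genes), 9 in the Aco1 line at ZT12, all lower (3.63% of all genes were lower), 1 in the Ireb2 line at ZT5 (Psmb3, 5.64% of all genes) and 1 at ZT12 (Psma4, 4.21%). The adjusted test called 0% of all genes in the Aco1 line at ZT5, 0.00935% at ZT12, and, in the Ireb2 line, 0.00935% at ZT5 followed by 0.0187% at ZT12. The Aco1 line at ZT12 stood out in direction, with 41 of 45 members lower in Aco1-/- than in Aco1+/+ and a median log2 fold change of -0.19, against 0.00 for all genes, of which 49.7% were lower. Among the classes there, the alpha subunits (7 of 7 lower, median -0.19), the beta subunits (6 of 6, median -0.26), the ATPases (6 of 6, median -0.21) and the activators (4 of 4, median -0.10) all lay below 0, and the inhibitor Psmf1 above it (0.23). Without single mice the median of the 45 lay between -0.25 and -0.10.

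In RPFs, 1 member fell. It was Psmb3 in the Aco1 line at ZT12, in a comparison in which 0.299% of all genes were called. Psmb3 RPFs were 62.8, 56.2 and 53.2 CPM in the Aco1+/+ livers and 25.2, 23.1 and 40.3 CPM in the Aco1-/- livers at ZT12, without overlap. The log2 fold change was -0.96 (SE 0.18, edgeR adjusted p = 0.0388). At ZT5 the same measure overlapped, with 83.0, 82.6 and 67.3 CPM in Aco1+/+ and 81.0, 67.6 and 68.1 CPM in Aco1-/- livers (log2 fold change -0.11, SE 0.18). The difference between the effects at ZT12 and ZT5 was -0.86 (SE 0.26, edgeR unadjusted p = 0.00361, adjusted p = 0.844). In the Ireb2 line at ZT12, Psmb3 gave 58.1, 62.2 and 51.5 CPM in controls and 51.0, 59.7 and 50.9 CPM in knockouts (log2 fold change -0.09, SE 0.12). Psmb3 RNA at ZT12 was 30.2, 21.1 and 21.7 CPM in Aco1+/+ and 20.4, 17.6 and 12.8 CPM in Aco1-/- livers, which did not overlap either (log2 fold change -0.57, SE 0.22, edgeR adjusted p = 0.542). The TE of Psmb3 in Aco1-/- livers was split, at 0.30 and 0.38 in replicates 1 and 2 but 1.62 in replicate 3, so RPFs of replicates 1 and 2 were low for their RNA and those of replicate 3 were not. The call was lost with the first sequencing run alone and with all count columns, where 0 members passed, and it rested on 5 of the 6 mice. Without any 1 of the 3 Aco1+/+ livers, or without Aco1-/- replicate 1 or 2, 0 members passed, and without Aco1-/- replicate 3, 1 did, while the fold change stayed between -1.25 and -0.82 and the unadjusted p at 0.000694 or below.

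With Psmb3 included, 13 of the 45 members had lower RPFs in Aco1-/- livers at ZT12 at an unadjusted p under 0.05 and 0 had higher ones, against 6.57% of all genes lower. The median over the 45 was -0.14, against 0.02 for all genes. DESeq2 called 4 of them, and 1.22% of all genes. These were, with their edgeR fold changes, Psmb3 (-0.96), the immunoproteasome subunit Psmb8 (-0.66), and the ATPases Psmc3 (-0.45) and Psmc5 (-0.43). Summed over the 45 members, RPFs were 3974, 3621 and 3741 CPM in Aco1-/- livers at ZT12 and 4206, 4024 and 4163 CPM in Aco1+/+ livers, and RNA was 3183, 2774 and 2543 CPM against 3034, 3059 and 3393 CPM. The RPF sums did not overlap, and the RNA sums did. Aco1-/- replicate 3 held the lowest RNA sum, and Aco1-/- replicate 1, the shallowest RNA library, was the highest of its group.

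The other knockout comparisons of RPFs at single timepoints gave 0 members called by edgeR, and DESeq2 gave 0. Averaged over both timepoints, a comparison chosen after the data were seen, edgeR called 0 members in either line. In it DESeq2 called Psmb8 (-0.53, adjusted p = 0.00653) and Psmb3 (-0.54, adjusted p = 0.0185) in the Aco1 line, and Psma4 in the Ireb2 line. The share of all genes called there by DESeq2 is not given here. In the Aco1 line at ZT5, 2 members were lower at an unadjusted p under 0.05 (Psmb8 and Psmb9, background 2.79%, adjusted 0.00935%). In the Ireb2 line at ZT5, 1 was lower (Psma4) and 4 were higher (Psma3, Psma5, Psmb8 and the chaperone Psmg4), against 7.64% of all genes (adjusted 0.0654%). At ZT12 2 were lower (Psma4 and Psme4), against 7.62% (adjusted 0.028%). Among the 5 at ZT5 the difference was largest for Psmg4, with 5.44, 6.90 and 5.73 CPM in Ireb2+/+ and 9.60, 10.5 and 8.75 CPM in Ireb2-/- livers (log2 fold change 0.67, SE 0.19, edgeR adjusted p = 0.386), without overlap but at low levels. Member medians in the Ireb2 line were 0.02 at ZT5 and 0.00 at ZT12, and those of all genes were 0.03 and 0.02.

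TE from CDS counts passed the test for 0 members in 8 comparisons (4 of genotype and 4 of timepoint). In 360 tests edgeR and DESeq2 each called 0, where edgeR called 0.103% of tests over all genes. At an unadjusted p under 0.05 there were 21 (8 higher, 13 lower), which is 5.83% of the members' tests against 6.01% over all genes. The lowest p without overlap belonged to the deubiquitinase Psmd14, whose TE in Aco1-/- livers was 0.57, 0.59 and 0.52 at ZT5 and 0.76, 0.97 and 1.82 at ZT12 (0.64, SE 0.22, edgeR adjusted p = 0.4), and to Psme4, which differed by -0.38 between timepoints in Aco1+/+ livers (SE 0.14, adjusted p = 0.494). With all count columns Psmb3 TE was called in the Aco1 line at ZT12 (-0.89, edgeR adjusted p = 0.0292) and between timepoints in Aco1-/- livers (-0.96, adjusted p = 0.0104), and without Aco1-/- replicate 3 at ZT12, 1 member was called between timepoints in those livers. The genotype effects likewise were not shown to differ between timepoints. In 270 tests of that difference edgeR and DESeq2 each called 0 (0.00467% over all genes), and 11 had an unadjusted p under 0.05 (3 higher, 8 lower), which is 4.07% against 4.87% over all genes.

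**Figure D2:**
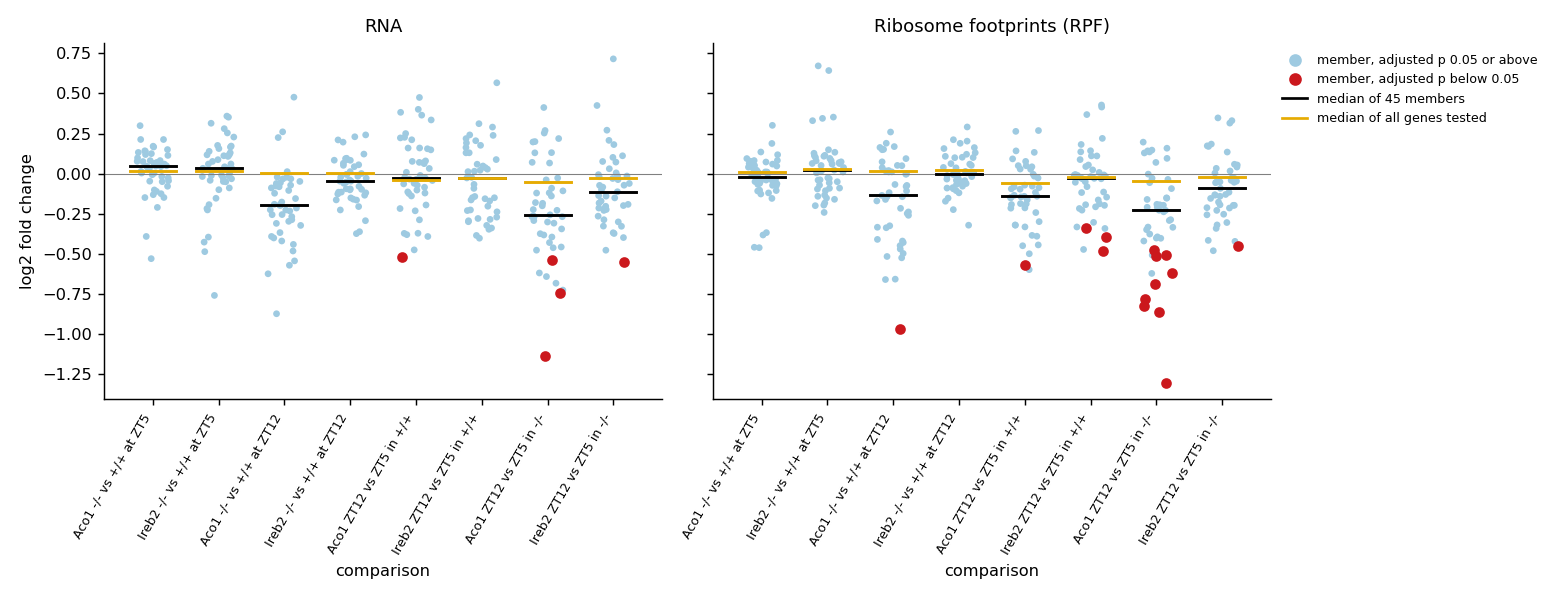
Log2 fold change (y axis) of each of the 45 members in RNA (left) and RPFs (right) for 4 comparisons of knockout with control and 4 of ZT12 with ZT5 (x axis). Red points passed the adjusted test and the others did not, black bars are medians of the members and yellow bars medians of all genes tested. All red points lie below 0, and 9 of them belong to RPFs of Aco1-/- livers between ZT5 and ZT12.

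Psma4 needs a comparison of its own in the Ireb2 line, because the gene is a neighbour of Ireb2. It encodes an alpha subunit of the core and lies at chr9:54950781-54958034 (GRCm38.p6), 38247 bases from the end of Ireb2 at chr9:54862658-54912534, with Hykk between them. The question is whether it stands apart from the subunits encoded elsewhere. The gene AY074887 overlaps the start of Psma4, and it had 0 CDS counts and at most 34 counts in all columns of any RNA library, so that its share in Psma4 counts cannot be told apart where strand is not known.

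Psma4 was lower in Ireb2-/- livers at both timepoints, by an amount that did not pass adjustment over all genes. At ZT5, RNA was 81.7, 84.1 and 61.7 CPM in Ireb2+/+ and 67.6, 61.4 and 67.2 CPM in Ireb2-/- livers. At ZT12 it was 67.3, 75.3 and 81.8 CPM against 56.9, 52.8 and 63.6 CPM. The groups overlapped at ZT5, where control replicate 3 was low, and did not overlap at ZT12. The RNA fold changes were -0.22 (SE 0.14) at ZT5 and -0.37 (SE 0.15, edgeR unadjusted p = 0.0192, adjusted p = 1.00) at ZT12. RPFs were 111.4, 112.1 and 100.1 CPM in controls and 100.6, 92.4 and 81.0 CPM in knockouts at ZT5. At ZT12 they were 93.4, 98.1 and 107.3 CPM in controls and 73.5, 83.2 and 82.7 CPM in knockouts. At ZT12 every knockout lay below every control, and at ZT5 knockout replicate 1 lay just above control replicate 3. The RPF fold changes were -0.24 (SE 0.11, edgeR adjusted p = 0.634) and -0.32 (SE 0.11, adjusted p = 0.473). Averaged over both timepoints, a comparison chosen after the data were seen, RPFs differed by -0.28 (SE 0.08, edgeR unadjusted p = 0.00214, adjusted p = 0.189), and DESeq2 gave -0.31 with an adjusted p of 0.0315. In the Aco1 line the same averaged comparison by DESeq2 called Psmb3 and Psmb8, as given above. TE of Psma4 differed by -0.03 at ZT5 and 0.05 at ZT12 in the Ireb2 line, so RNA and RPFs of Psma4 were lower by like amounts.

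Measured against the other subunits in the same library, Psma4 RPFs stood at the low end. The log2 level of Psma4 minus the median of the other 44 members was 0.08, 0.03 and -0.04 in Ireb2+/+ and -0.10, -0.11 and -0.30 in Ireb2-/- livers at ZT5. At ZT12 it was 0.05, -0.07 and 0.25 against -0.41, -0.15 and -0.35. Each knockout lay below each control at its timepoint. The difference over both timepoints was -0.29 (exact two-sided permutation p = 0.005, the smallest that 400 relabellings can give, and 0.03 after adjustment over 6 such tests). At single timepoints it was -0.19 and -0.38, each with an exact permutation p of 0.1, the smallest that 3 against 3 allows. Computed the same way for each of the 45 members, it was the lowest, the next being Psme4 at -0.15, and the median of the others was 0.09. In RNA the difference was -0.31 (exact permutation p = 0.07, adjusted 0.21), the second lowest after Psmb3 at -0.40, with -0.26 at ZT5 and -0.35 at ZT12. It reached -0.41 (p = 0.015 by exact permutation) without Ireb2+/+ replicate 3 at ZT5 and -0.40 (p = 0.025 by exact permutation) without Ireb2-/- replicate 3 at ZT12. In RPFs it stayed between -0.33 and -0.24 without any single mouse (exact permutation p of 0.01 or below). In TE it was -0.02 (exact permutation p = 0.875).

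In the Aco1 line, whose deleted gene lies on another chromosome, the same difference for RPFs over both timepoints was -0.06 (exact permutation p = 0.625), and Psma4 ranked 15 of 45 from the lowest. By timepoint it was 0.15 at ZT5 (exact permutation p = 0.6) and -0.27 at ZT12 (exact permutation p = 0.1, the smallest possible). At ZT12 the relative levels were -0.13, 0.06 and -0.20 in Aco1+/+ and -0.44, -0.33 and -0.29 in Aco1-/- livers, without overlap, as in the Ireb2 line. For RNA it was -0.21 over both timepoints (exact permutation p = 0.14, rank 4), with 0.04 at ZT5 and -0.46 at ZT12 (exact permutation p = 0.1). The CPM values showed the same split by timepoint. RPFs at ZT12 were 98.4, 98.0 and 89.0 CPM in Aco1+/+ and 62.2, 63.8 and 72.6 CPM in Aco1-/- livers (log2 fold change -0.52, SE 0.17, edgeR adjusted p = 0.224), without overlap, and at ZT5 they were 108.4, 102 and 66.9 against 105.5, 126 and 87.9 CPM (0.19, SE 0.17). Psma4 was thus below its controls at ZT12 in both lines, and the lines were not tested against each other.

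**Figure D3:**
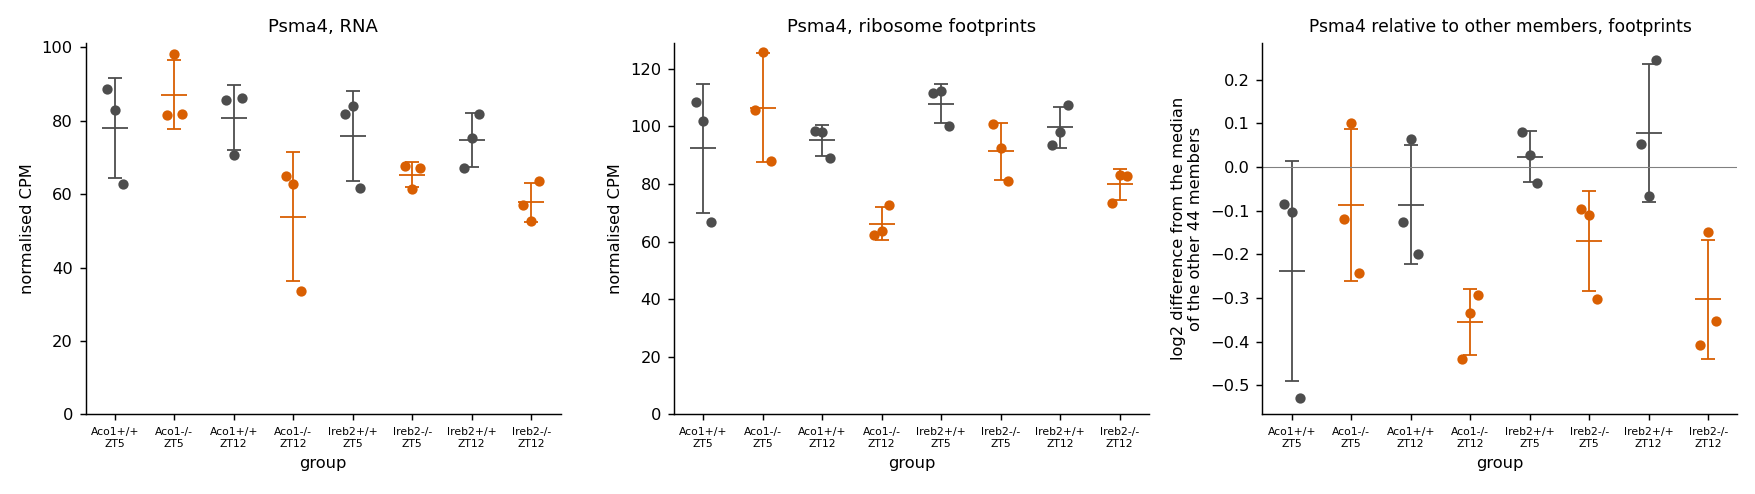
Psma4 by group (x axis) in RNA and RPFs (y axis, normalised CPM) and, at right, its RPF level relative to the median of the other 44 members (y axis, log2 difference). Points are mice, bars are mean ± SD (n = 3), grey is control and orange knockout; in the right panel every Ireb2-/- liver lies below every Ireb2+/+ liver of its timepoint.

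The window around Ireb2 was read in the same way. Within 500 kb on either side there were 19 protein-coding genes, of which 12 were listed and 11 tested, 9 of them other than Ireb2 and Psma4. None of the 9 passed the adjusted edgeR test in RNA or RPFs at either timepoint. The gene nearest to Ireb2, Hykk, which encodes hydroxylysine kinase, differed by 0.03 (SE 0.23) at ZT5 and -0.02 (SE 0.24) at ZT12 in RPFs. Dnaja4, which encodes a co-chaperone of HSP70, differed by -0.71 (SE 0.29) and -1.24 (SE 0.35) in RPFs, and by -0.98 averaged over both (SE 0.23, edgeR adjusted p = 0.0754). Dmxl2 RPFs differed by -0.24 (SE 0.14) at ZT5 and -0.55 (SE 0.14) at ZT12 (edgeR adjusted p = 0.32). Cib2 RNA differed by -0.54 (SE 0.36) at ZT5 and -1.22 (SE 0.43) at ZT12, and its RPFs, averaged over both, by -0.33 (SE 0.33). For the remaining genes the averaged RPF differences were -0.07 (SE 0.09) for Idh3a, 0.01 (SE 0.08) for Wdr61, 0.01 (SE 0.32) for Ube2q2, -0.01 (SE 0.09) for Fbxo22 and 0.08 (SE 0.47) for Nrg4. Ireb2 itself fell by 1.00 in RPFs at ZT5 (edgeR adjusted p = 0.00294) and by 0.98 at ZT12 (adjusted p = 0.00278), while its RNA differed by 0.30 (SE 0.22) and -0.16 (SE 0.22).

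The second question was the time of day. From ZT5 to ZT12 every member that passed the edgeR test fell, and Psmd11 was the one that recurred. Single rises were called under other settings, of Psmb8 RPFs in Ireb2+/+ livers by DESeq2 (0.40, adjusted p = 0.0488) and of Psme4 RNA in Aco1+/+ livers by edgeR fitted to the compared mice alone (0.40, adjusted p = 0.0479). Psmd11 encodes Rpn6, the lid subunit that braces the cap against the core and is known as a limiting factor for assembly. Its RPFs at ZT5 were 199.9, 174 and 191 CPM in Aco1+/+, 206, 189.5 and 168 CPM in Aco1-/-, 176, 186 and 175 CPM in Ireb2+/+ and 197, 181 and 191 CPM in Ireb2-/- livers. At ZT12 they were 132.01, 124.4 and 123.9 CPM, 143, 133.7 and 129.5 CPM, 134.7, 156 and 135.5 CPM, and 138, 139 and 139.5 CPM in the same order. In each genotype all 3 livers at ZT12 lay below all 3 at ZT5. The log2 fold changes were -0.57 (SE 0.13, edgeR adjusted p = 0.0108) in Aco1+/+, -0.47 (SE 0.13, adjusted p = 0.0224) in Aco1-/-, -0.34 (SE 0.10, adjusted p = 0.0468) in Ireb2+/+ and -0.45 (SE 0.10, adjusted p = 0.0113) in Ireb2-/- livers. RNA of Psmd11 did not overlap between timepoints in any genotype either, and it fell in Aco1-/- (-0.54, SE 0.14, edgeR adjusted p = 0.0189) and Ireb2-/- livers (-0.55, SE 0.13, adjusted p = 0.0178). In Aco1+/+ and Ireb2+/+ livers the RNA values were -0.39 (SE 0.14, adjusted p = 0.0909) and -0.32 (SE 0.13, adjusted p = 0.222), and whether genotypes differ in this was not shown, as 0 members passed that test. TE of Psmd11 differed by -0.17 to 0.10. In each fit without 1 mouse the unadjusted edgeR p for RPFs was 0.019 or below. The adjusted RPF call was lost in 3 of 6 such fits in Aco1+/+ and 4 of 6 in Aco1-/- livers. It was lost in 5 of 6 in Ireb2+/+ and 1 of 6 in Ireb2-/- livers. Each of the RNA calls, in Aco1-/- and Ireb2-/- livers, was lost in 4 of 6. Of the RPF calls, those in Aco1-/- and in Ireb2+/+ livers were lost with the first sequencing run alone and with the compared mice alone, and that in Ireb2+/+ livers also with a replicate block. Of the RNA calls, that in Aco1-/- livers was lost with the compared mice alone and that in Ireb2-/- livers with all count columns.

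**Figure D4:**
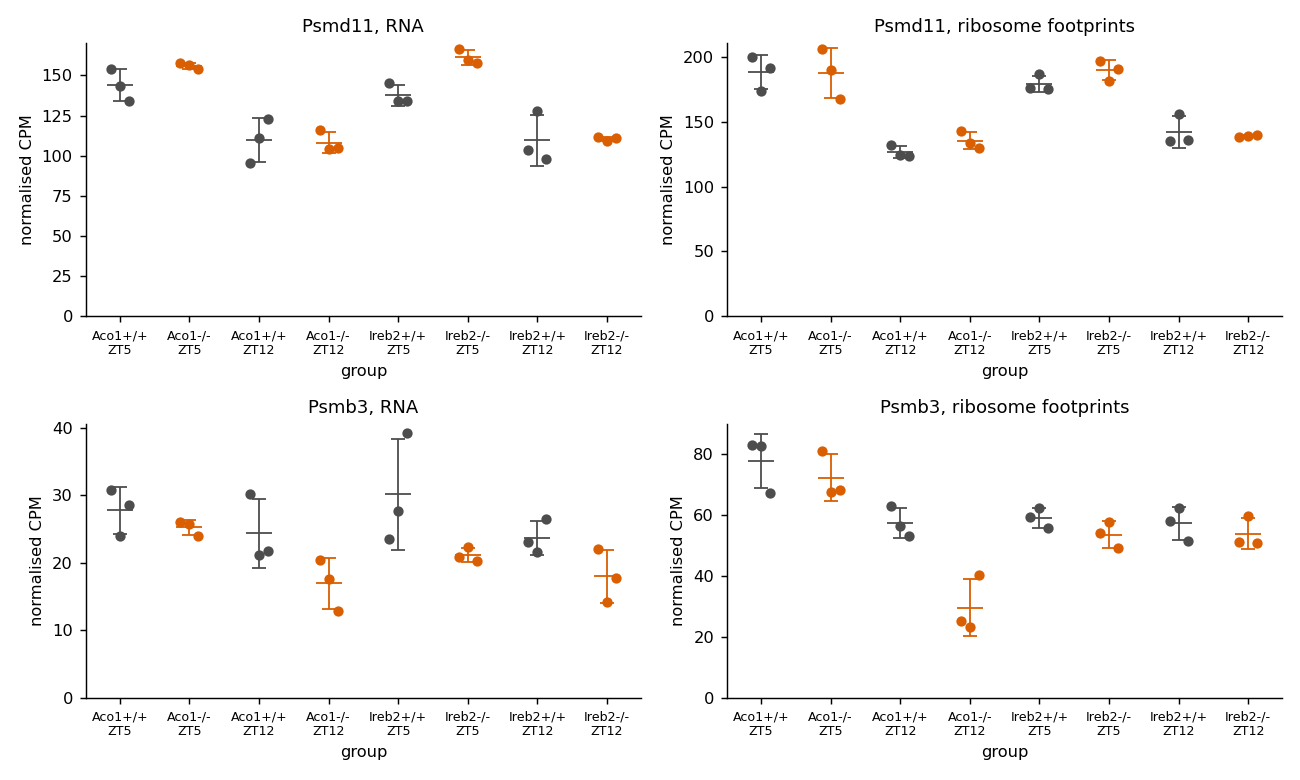
Psmd11 (top) and Psmb3 (bottom) in RNA and RPFs (y axis, normalised CPM) by group (x axis). Points are mice, bars are mean ± SD (n = 3), grey is control and orange knockout. Psmd11 is lower at ZT12 than at ZT5 in every genotype, and Psmb3 RPFs of Aco1-/- livers at ZT12 (25.2, 23.1 and 40.3 CPM) lie below all other groups.

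Lower values at ZT12 without overlap in all 4 genotypes were found for 2 members in RNA, Psmd11 and Psmd4 (1.34% of all genes), and for 2 in RPFs, Psmd11 and Psmd3 (1.77% of all genes). Psmd4 encodes the ubiquitin receptor Rpn10, and its RNA in Aco1+/+ livers was 114, 100.5 and 89.99 CPM at ZT5 and 76.1, 67.8 and 69.8 CPM at ZT12 (log2 fold change -0.52, SE 0.15, edgeR adjusted p = 0.031). That call was lost with the first sequencing run alone, while Psmd4 RPFs in the same livers were called by DESeq2 (-0.41, adjusted p = 0.0387), with the compared mice alone and with a replicate block. Psmd3, another lid subunit, differed by -0.35 to -0.21 in RPFs over the 4 genotypes and passed in none, but was called with all count columns in Ireb2+/+ livers (-0.40, edgeR adjusted p = 0.0326). In direction alone, 14 of the 45 were lower in all 4 genotypes in RNA, 22 in RPFs and 6 in TE, that is, below 0 in each. Over all genes the shares lower in all 4 were 20.3% in RNA, 22.2% in RPFs and 6.76% in TE. The members higher in all 4 were 3, 1 and 0, against 15.2%, 16.3% and 7.78% of all genes.

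By genotype, RNA fell for 1 member in Aco1+/+ (Psmd4, against 3.76% of all genes), 3 in Aco1-/- (Psma5, Psma4 and Psmd11, 2.73%), 0 in Ireb2+/+ (1.2%) and 1 in Ireb2-/- livers (Psmd11, 1.45%). In Ireb2+/+ livers edgeR and DESeq2 both called 0, and 7 had an unadjusted p under 0.05 (5 lower, 2 higher), against 15.1% of all genes. RPFs fell for 1 in Aco1+/+ (Psmd11, 3.18%), 9 in Aco1-/- (6.78%), 3 in Ireb2+/+ (Psmd14, Psma1 and Psmd11, 3.9%) and 1 in Ireb2-/- livers (Psmd11, 3.06%). By DESeq2 the RPF counts were 2 in Aco1+/+ livers (both lower, 7.7% of all genes) and 5 in Ireb2+/+ livers (4 lower, 7.61%). Single mice moved these small counts, and the shares of all genes called without them are not given here. In Aco1+/+ RNA the count was 0 without ZT12 replicate 2 or 3 or ZT5 replicate 1 or 2, and 2 without ZT5 replicate 3. In Aco1+/+ RPFs it was 0 without ZT12 replicate 2 or 3 or ZT5 replicate 1, and 2 without ZT5 replicate 3. In Ireb2+/+ RPFs it was 0 without ZT12 replicate 1 or 3 or ZT5 replicate 1, and 1 without ZT5 replicate 2. In Ireb2-/- livers it was 0 in RNA without replicate 1 or 2 of either timepoint, and in RPFs 0 without ZT5 replicate 1 and 2 without ZT12 replicate 3.

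The 9 members whose RPFs fell in Aco1-/- livers came from core and cap. From the core they were the alpha subunits Psma4 (-0.68) and Psma5 (-0.86) and the beta subunits Psmb3 (-1.30) and Psmb5 (-0.51), and from the cap the ATPases Psmc3 (-0.50) and Psmc5 (-0.62), the lid subunits Psmd7 (-0.78) and Psmd11 (-0.47) and the chaperone Psmd10 (-0.82), which is also known as gankyrin. The count is 20.0% of the 45, where 6.78% of all genes fell, and the members' median was -0.23 against -0.05. Psmb3 RPFs went from 81.0, 67.6 and 68.1 CPM at ZT5 to 25.2, 23.1 and 40.3 CPM at ZT12 (log2 fold change -1.30, SE 0.19, edgeR adjusted p = 0.000275). Psma5 went from 31.6, 28.6 and 27.0 CPM to 15.3, 16.6 and 16.3 CPM (-0.86, SE 0.18, adjusted p = 0.00412), and its RNA from 18.5, 14.8 and 14.7 CPM to 10.2, 6.35 and 6.81 CPM (-1.14, SE 0.26, adjusted p = 0.00601). Neither gene overlapped between the timepoints in RPFs. Psmc5 went from 131.03, 123.95 and 120.7 CPM to 82.2, 75.1 and 87.8 CPM (-0.62, SE 0.13, edgeR adjusted p = 0.00586), and Psmc3 from 199, 199 and 194 CPM to 140.4, 122.9 and 154 CPM, both ATPases of the same ring. Psmd7 went from 130.7, 115 and 80.9 CPM to 60.7, 55.6 and 74.2 CPM, Psmd10 from 21.7, 18.002 and 13.6 CPM to 8.49, 10.9 and 11.4 CPM, and Psmb5 from 45.8, 45.2 and 31.4 CPM to 28.9, 27.4 and 29.99 CPM. None of the 5 overlapped, although replicate 3 at ZT5 came near the ZT12 livers in the last 3. In Aco1+/+ livers the same changes were -0.44 (SE 0.18, adjusted p = 0.16) for Psmb3 and -0.38 (SE 0.17, adjusted p = 0.204) for Psma5. RNA of Psma4 in Aco1-/- livers went from 81.5, 98.1 and 81.8 CPM to 65.1, 62.9 and 33.8 CPM (-0.74, SE 0.19, adjusted p = 0.0189), with replicate 3 at ZT12 lowest. With all count columns the RNA calls of Psma4 and Psma5 were lost, and Psmc3 and Psmd4 were called beside Psmd11. Of the 9, Psma4, Psma5, Psmb3 and Psmd7 were also called by DESeq2, with all count columns, with the first sequencing run alone, with the compared mice alone and with a replicate block. Psmb5 (edgeR adjusted p = 0.0477) was called under the block only among these. The count of 9 was 5 with the first run and 5 without ZT12 replicate 2 or ZT5 replicate 1, and that of 3 in RNA was 8 without ZT12 replicate 1 and 1 without ZT12 replicate 3 or ZT5 replicate 2. Shares of all genes called under these settings are not given here, so the shifts are not read as particular to the members. The 3 Aco1-/- livers at ZT12 serve both here and in the comparison with Aco1+/+ above, so the 2 sets of lower values are not independent, and the test of the difference between genotypes in the change with time called 0 members.

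Markers of cell types moved with time too. Of 5 cholangiocyte markers 4 were tested, and their summed RPFs were 67.5 to 82.2 CPM at ZT5 and 24.3 to 29.0 CPM at ZT12 in Aco1+/+ livers, without overlap, and 53.4 to 86.2 and 28.1 to 57.3 CPM in Aco1-/- livers. In Ireb2+/+ livers they were 38.7 to 53.2 and 25.2 to 44.8 CPM, and in Ireb2-/- livers 60.6 to 108.6 and 36.8 to 65.9 CPM. The list medians of the RPF change were -1.13 (range -1.61 to -0.82) in Aco1+/+, -0.58 (-1.24 to 1.00) in Aco1-/-, 0.00 (-0.95 to 0.72) in Ireb2+/+ and -0.78 (-1.88 to -0.43) in Ireb2-/- livers. By the edgeR test 2 of the 4 fell in RPFs of Aco1+/+ livers (Spp1 and Sox9, 3.18% of all genes fell), 1 in Aco1-/- (Spp1, 6.78%) and 1 in Ireb2-/- livers (Epcam, 3.06%), and 0 in Ireb2+/+ livers (3.9%), where 1 had an unadjusted p under 0.05. Of all 10696 genes, 1061 were higher and 1256 lower at that unadjusted p in Ireb2+/+ livers. Of 7 hepatocyte markers, 2 rose in RPFs of Aco1+/+ and of Aco1-/- livers (Cyp2e1 and Tat, which encode a cytochrome P450 and tyrosine aminotransferase), with list medians of 0.28 and 0.47, and 0 were called in the Ireb2 line, where 1 in each genotype had an unadjusted p under 0.05. Of all 10696 genes, 370 rose in Aco1+/+ and 568 in Aco1-/- livers. At that unadjusted p 1061 were higher in Ireb2+/+ and 921 in Ireb2-/- livers. Summed hepatocyte markers went from 164410 to 210030 CPM at ZT5 to 219160 to 231270 CPM at ZT12 in Aco1-/- livers and from 166620 to 214310 CPM to 221280 to 253050 CPM in Ireb2-/- livers, without overlap in either. In both control genotypes these sums overlapped between timepoints. Of 5 endothelial markers 1 fell, Clec4g in RPFs of Aco1-/- livers (-0.65, SE 0.16), where 6.78% of all genes fell. The list median there was 0.01 (range -0.65 to 0.13). In Ireb2-/- livers 0 were called, but all 5 were below 0 in RNA and RPFs. Their summed RPFs there were 574 to 632 CPM at ZT5 and 528 to 539 CPM at ZT12. Summed RNA was 629 to 729 and 536 to 546 CPM, and neither sum overlapped. In the other genotypes the endothelial sums overlapped. The part of these cell types in the members' falls was not tested.

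In Ireb2+/+ livers, Psmd14, the deubiquitinase of the lid, had RPFs of 72.4, 67.8 and 72.1 CPM at ZT5 and 47.8, 54.5 and 50.0 CPM at ZT12 (log2 fold change -0.48, SE 0.12, edgeR adjusted p = 0.0186). Psma1, an alpha subunit, had 132.03, 131.8 and 141 CPM at ZT5 and 94.8, 118 and 95.2 CPM at ZT12 (-0.39, SE 0.12, adjusted p = 0.0451). Neither overlapped. The call of Psma1 was lost with the first sequencing run alone, with the compared mice alone and with a replicate block.

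Immunoproteasome subunits replace the constitutive catalytic ones in immune cells and in cells exposed to interferon, and they shape the peptides shown on MHC class I. None passed the adjusted edgeR test in any genotype comparison, while DESeq2 called Psmb8 RPFs in the Aco1 line at ZT12 (adjusted p = 0.013), as did edgeR fitted to the compared mice alone (adjusted p = 0.0444). Psmb8 RPFs in the Aco1 line were 34.8, 47.2 and 37.8 CPM in Aco1+/+ and 34.1, 30.4 and 27.0 CPM in Aco1-/- livers at ZT5 (log2 fold change -0.38, SE 0.16, edgeR unadjusted p = 0.0244, adjusted p = 1.00). At ZT12 they were 40.5, 44.1 and 39.6 CPM against 26.8, 27.4 and 24.4 CPM (-0.66, SE 0.15, adjusted p = 0.0694). All Aco1-/- livers lay below all Aco1+/+ livers of their timepoint. In the Ireb2 line Psmb8 RPFs were 36.4, 32.0 and 33.5 CPM in controls and 38.7, 44.1 and 45.0 CPM in knockouts at ZT5 (0.33, SE 0.12, edgeR unadjusted p = 0.0132, adjusted p = 0.557), where the knockouts were higher without overlap. At ZT12 the difference was -0.17 (SE 0.12). Psmb9 differed by -0.46 (SE 0.22) at ZT5 and -0.47 (SE 0.22) at ZT12 in the Aco1 line, and Psmb10 by -0.10 (SE 0.16) and -0.17 (SE 0.15). Of the activator genes induced with them, Psme1 differed by -0.15 (SE 0.13) and -0.41 (SE 0.13) and Psme2 by -0.05 (SE 0.20) and 0.04 (SE 0.19). Of the constitutive catalytic subunits, Psmb5 differed by -0.34 (SE 0.16) in RPFs of the Aco1 line at ZT12, and Psmb6 by -0.24 (SE 0.15).

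Beside these values, 12 interferon and antigen processing genes (among them Tap1 and B2m) gave 0 calls in the 4 genotype comparisons of RNA and the 4 of RPFs. Their median RPF fold change was -0.01 at ZT5 and -0.10 at ZT12 in the Aco1 line and 0.16 and 0.22 in the Ireb2 line. In the Ireb2 line at ZT5 their summed RPFs were 3012 to 3101 CPM in controls and 3269 to 3564 CPM in knockouts, without overlap, and in the other 3 genotype comparisons the sums overlapped. The 10 Kupffer cell markers (the resident macrophages of liver) also gave 0 calls. Their summed RPFs ranged from 598 to 671 CPM in Aco1+/+ and from 541 to 689.7 CPM in Aco1-/- livers at ZT12 and overlapped, as they did at ZT5 (640.4 to 766 and 632 to 941 CPM). In the Ireb2 line at ZT5, where Psmb8 was higher in knockouts, all 10 were higher in RPFs (median 0.20, lowest 0.10), and their sums were 615 to 633 CPM in controls and 627 to 795 CPM in knockouts. In that comparison the summed RPFs of 4 cholangiocyte markers were 38.7 to 53.2 CPM in controls and 60.6 to 108.6 CPM in knockouts, without overlap. All 5 endothelial markers were higher there too (median 0.12, lowest 0.07), but their sums overlapped, as did those of hepatocyte and stellate cell markers. In the Aco1 line at ZT12 the summed RPFs of 5 endothelial markers were 518 to 537 CPM in Aco1+/+ and 475 to 567 CPM in Aco1-/- livers, and those of 4 stellate cell markers 795 to 852 and 776 to 922 CPM. The part of these genes in the values of Psmb8 was not tested.

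**Figure D5:**
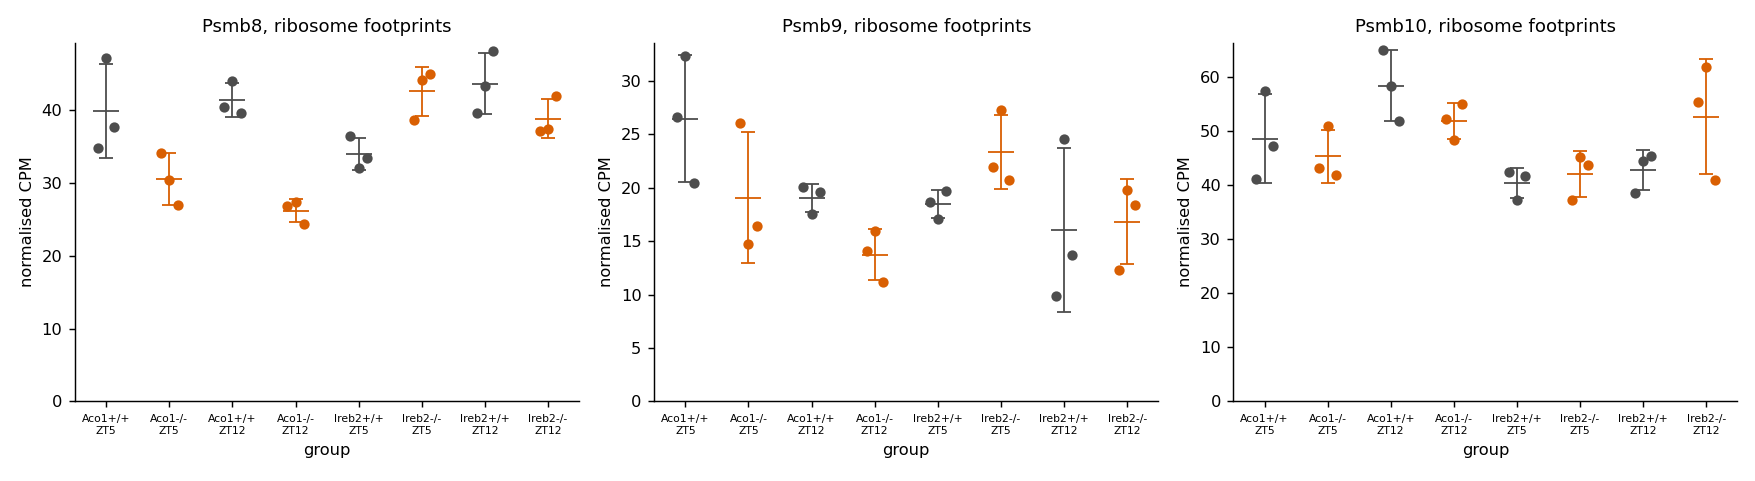
RPFs of the immunoproteasome subunits Psmb8, Psmb9 and Psmb10 (y axis, normalised CPM) by group (x axis). Points are mice, bars are mean ± SD (n = 3), grey is control and orange knockout. Psmb8 of Aco1-/- livers at ZT12 (24.4 to 27.4 CPM) lies below Aco1+/+ (39.6 to 44.1 CPM), while in the Ireb2 line at ZT5 the knockouts are the higher group.

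Genes that work with the proteasome but do not carry its letters were read from a list of 32, all tested, which holds the chaperone Pomp, the cap subunits Adrm1 and Sem1, ubiquitin genes, shuttle factors, the regulators Nfe2l1 and Nfe2l2, and the ligase subunits that target IRP2. In the genotype comparisons 0 passed in RNA, and in RPFs 1 fell (0.299% of all genes were called), Ubb, a polyubiquitin gene, in the Aco1 line at ZT12 (log2 fold change -0.88, SE 0.14, edgeR adjusted p = 0.0102). Fbxl5, the IRP2 ligase's iron sensor, differed in RPFs by -0.14 (SE 0.15) at ZT5 and -0.35 (SE 0.16, edgeR adjusted p = 0.642) at ZT12 in the Ireb2 line. Between timepoints, RPFs fell in Aco1-/- livers for 3 of the 32 (6.78% of all genes), Sem1 (-1.10, SE 0.25), the smallest cap subunit, Rbx1 (-1.17, SE 0.27), the RING subunit of cullin ligases, and the ubiquitin-binding factor Zfand5 (-0.84, SE 0.19). RNA fell for 1, Sem1 (-1.05, SE 0.23, against 2.73% of all genes). In Ireb2-/- livers RPFs fell for 2 (3.06% of all genes), Zfand5 (-0.68, SE 0.15) and the cullin Cul1 (-0.49, SE 0.11). In Ireb2+/+ livers RNA fell for 2 of the 32 (1.2% of all genes fell), Zfand5 (-0.82, SE 0.20) among them. RPFs rose there for 2 (3.63% of all genes rose), among them Rps27a (2.01, SE 0.23), which encodes ubiquitin fused to a ribosomal protein.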

How the data were processed

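Livers of 24 mice gave 24 RNA and 24 RPF libraries, of which 29 were sequenced in 2 runs. The authors trimmed reads with cutadapt (3.5), filtered them by quality and length, removed rRNA and tRNA reads with bowtie2, mapped the rest with STAR (2.70f) to GRCm38 with annotation of Ensembl 100 and deposited raw counts per gene and run, not normalised. The counting tool and its strand setting are not given in the sources used here. The count columns carry no names. The CDS column, read as such from the values, held 26.3 (Psmg3) to 92.8% (Psmc5) of a member's RNA counts, median 62.1%, and 78.3 (Psmd14) to 99.3% (Psmc2) of its RPF counts, median 89.7%.

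Runs of one library were summed. Genes were kept by filterByExpr (minimum count 10, total 15), libraries scaled by the upper quartile as in the study's methods, and edgeR's quasi-likelihood test was fitted per line, whose 4 groups share one dispersion. The TE model took RNA and RPF libraries together and had a coefficient per mouse. Fold changes are log2, standard errors are the absolute fold change over the square root of F, and p-values were adjusted by Benjamini-Hochberg over all genes at 0.05. CPM are normalised, and TE of single livers uses CPM plus 0.5. Depth (852293 to 3993492 CDS counts in RNA, 2448915 to 13439600 in RPF libraries) limits rare members, and replicates are separate mice. Psma4 relative to the other members was tested by exact two-sided permutation of mice within timepoints. The methods were tested on simulated data with 200 changed genes. Alternatives were TMM scaling, DESeq2, no filter and a minimum count of 30, the first run alone, all count columns, fits to the compared mice alone, omission of single mice, a replicate block, unpaired libraries and, added with the data in view, both timepoints averaged and Psma4 in the Aco1 line. The members and lists were chosen with earlier results of these data known. Named with values are Psma4, members that passed a test, the 3 of smallest p in each direction without overlap, the TE extremes of each class, catalytic subunits and the neighbours of Ireb2. Others were chosen after their values were seen. Some genes of the lists are not reported here. Fits ran in edgeR 4.0.16 (R 4.3.3, limma 3.58.1), and DESeq2 was version 1.42.0. Permutations and summaries ran in Python 3.11.15 with SciPy 1.17.1 (pandas 2.3.3, NumPy 2.4.6), and Matplotlib 3.10.9 drew the plots.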

Additional observations from a re-analysis of the deposited data

Results flagged for a closer look

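In these 2 members the lines went opposite ways under loss of an IRP, every knockout below every control in one line and above it in the other, and the difference between lines was not tested. Psmb8 RPFs at ZT5 differed by -0.38 between Aco1-/- and Aco1+/+ livers and by 0.33 between Ireb2-/- and Ireb2+/+ livers. Psmd1, a scaffold subunit of the 19S cap, differed in TE at ZT12 by 0.35 in the Aco1 line and by -0.091 in the Ireb2 line. Groups held 3 mice, too few to test single mice as outliers.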

How the results depend on the processing

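TMM scaling, no filter on low counts and a minimum count of 30 left every count of members within 1.5 times, as did libraries not paired by mouse for the 10 TE counts they apply to. Of the 20 calls of single members, TMM scaling and no filter each ended 1, and the minimum count of 30 kept all 20. With DESeq2 the counts of members called were 4 in RPFs of the Aco1 line at ZT12 (knockout against control), and between timepoints 2 in RPFs of Aco1+/+ and 5 of Ireb2+/+ livers. With the first sequencing run alone they were 0 in RPFs of the Aco1 line at ZT12, and between timepoints 0 in RNA of Aco1+/+, 1 in RNA and 5 in RPFs of Aco1-/-, and 1 in RPFs of Ireb2+/+ livers. With all count columns they were 0 in RPFs and 1 in TE (Psmb3) of the Aco1 line at ZT12, and between timepoints 2 in RNA of Aco1+/+, 1 in TE of Aco1-/- (Psmb3), 5 in RPFs of Ireb2+/+ and 2 in RNA of Ireb2-/- livers. With only the mice compared they were 2 in RPFs of the Aco1 line at ZT12, and between timepoints 2 in RNA and 2 in RPFs of Aco1+/+ and 1 in RPFs of Ireb2+/+ livers. With a replicate block they were 2 in RPFs of Aco1+/+ and 1 in RPFs of Ireb2+/+ livers between timepoints, and the block moved no other count past 1.5 times. Same-numbered mice deviated together (correlation over 0.1) in 5 of 24 pairs, with correlations from -0.09 to 0.33. The highest was that of RPFs of replicate 3 in the Aco1 line at ZT5. There the summed RPFs of the members were lowest in replicate 3 of both genotypes (4105 CPM in Aco1+/+, 4085 CPM in Aco1-/-). Whether a replicate number stands for a shared batch was not tested. Nor was the cause of the shifts in counts. Except for DESeq2, shares of all genes called under these settings are not given here, so the shifts are not read as particular to the members.

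Without single mice, the count was 0 to 1 in RPFs of the Aco1 line at ZT12, and between timepoints 0 to 2 in RNA and RPFs of Aco1+/+, 1 to 8 in RNA, 5 to 12 in RPFs and 0 to 1 in TE of Aco1-/-, 0 to 3 in RPFs of Ireb2+/+, and 0 to 1 in RNA and 0 to 2 in RPFs of Ireb2-/- livers. Shares of all genes called in those fits are not given here. The median RNA fold change of the members in the Aco1 line at ZT12 was -0.25 to -0.10 without single mice. TE of Psma4 in the Ireb2 line changed sign, with 0.087 in the first run at ZT5 and 0.0086 averaged over timepoints, and ranges without single mice of -0.090 to 0.074 at ZT5 and -0.038 to 0.10 at ZT12. Relative to the other members its TE was 0.053 in the first run, 0.014 with all columns and -0.064 to 0.038 without single mice, and its RNA was -0.41 to -0.25. Signs of RNA and RPF differences of Psma4 in that line held under every alternative run. An order of levels per kb of CDS was planned and not run, as no CDS lengths were at hand. With 3 mice a group, small changes pass only where the spread is low, and Psma8, Psmc3ip and Psme2b are too rare to compare.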
